A study of Mus musculus with 19 samples.

Results

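The genes that write and erase 5-methylcytosine were followed in whole mouse kidney. They are the methyltransferase genes Dnmt1, Dnmt3a, Dnmt3b and Dnmt3l, the maintenance factor gene Uhrf1, the oxidase genes Tet1, Tet2 and Tet3, and the DNA glycosylase gene Tdg. They were chosen by name, not by value, and each of the 9 was found once among the 54146 genes listed in each library. The libraries were poly(A) RNA sequencing libraries of kidneys from B6C3F1/J mice at 3 weeks of age, which is postnatal day 21. The KspCre DKO group held 2 libraries from mice with floxed Dnmt3a and Dnmt3b genes and a KspCre transgene, a Cre recombinase under the Ksp-cadherin (Cdh16) promoter that is active in tubule epithelium. The control group held 3 libraries from mice that carry the same floxed genes without Cre. Whole kidney also holds stroma, vessels, podocytes and blood cells, which that promoter does not target. The study concerns the part of DNMT3A and DNMT3B in switching off fetal enhancers of the kidney, and its 14 bisulfite libraries are not analysed here. Whether each library is a different animal is not stated in the labels, and the spread that the p-values rest on may therefore be technical.

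Methylation of cytosine in CG pairs is placed on unmethylated DNA by DNMT3A and DNMT3B, which DNMT3L, a relative without catalytic activity, stimulates in germ cells and early embryos. After replication the mark is copied to the new strand by DNMT1, which UHRF1 brings to half-methylated CG pairs. TET enzymes oxidise the methyl group, and TDG cuts out the oxidised products so that base excision repair can restore an unmodified cytosine. Differentiated tissue such as postnatal kidney is known to keep maintenance and oxidation enzymes while it makes little DNMT3L.

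The sequences before the start sites of these genes show how much the family members differ in CG pairs, the substrate of these enzymes. RefSeq for assembly GRCm38.p6 gave 16 start-site windows for all 9 genes, each of 300 bases, from 250 bases before to 50 after a start. Dnmt3a and Dnmt3l are shown because their first listed starts stand near opposite ends in CG content, and the genes in transcript level. The 250 bases before the first listed start of each are printed 5′ to 3′, with each CG pair in capitals. The Dnmt3a stretch is chr12:3806730-3806979 on the plus strand and the Dnmt3l stretch is chr10:78042037-78042286 on the plus strand.
Dnmt3a: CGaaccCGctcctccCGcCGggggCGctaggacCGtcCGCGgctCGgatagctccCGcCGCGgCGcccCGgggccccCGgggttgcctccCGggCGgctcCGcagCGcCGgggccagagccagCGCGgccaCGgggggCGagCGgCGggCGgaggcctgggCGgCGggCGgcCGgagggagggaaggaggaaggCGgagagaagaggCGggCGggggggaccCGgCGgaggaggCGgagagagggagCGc
Dnmt3l: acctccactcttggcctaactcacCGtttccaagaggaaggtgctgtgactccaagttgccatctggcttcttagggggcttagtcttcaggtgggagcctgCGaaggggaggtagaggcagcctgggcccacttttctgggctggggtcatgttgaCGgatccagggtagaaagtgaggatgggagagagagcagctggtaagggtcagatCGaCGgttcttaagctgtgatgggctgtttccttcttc

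The Dnmt3a stretch held 38 CG pairs and the Dnmt3l stretch 5. In the full windows of 300 bases the first Dnmt3a start had 46 CG pairs, a number that 1.65% of all 32851 windows in the table reached. The second Dnmt3a window had 47, but the third had 18, which 29.72% reached. The single Tet2 window had 57, which 0.15% reached. The 3 Dnmt3l windows had 6, 4 and 3, against a median of 7 over all windows. Dnmt3b had 30, Tdg 26, Tet3 22 and Tet1 17 in their single windows. Dnmt1 had 2, 12 and 33 in its 3 windows, and Uhrf1 12 and 33 in its 2. Methylation at these starts was not analysed here.

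Dnmt1 and Uhrf1 are shown because they act together at the replication fork and their windows alone among the 16 held an E2F-type motif. The motif was searched as TTTGGCGC and TTTCGCGC on both strands, and E2F factors are known to drive genes of the cell cycle. The Dnmt1 stretch is chr9:20952624-20952873 on the minus strand, before the third listed start, and the Uhrf1 stretch is chr17:56304063-56304312 on the plus strand, before the second. Both stretches lie downstream of the earlier listed starts, within the listed span of their gene, so each can include transcribed sequence. Capitals mark the motif, which is on the opposite strand in Dnmt1.
Dnmt1: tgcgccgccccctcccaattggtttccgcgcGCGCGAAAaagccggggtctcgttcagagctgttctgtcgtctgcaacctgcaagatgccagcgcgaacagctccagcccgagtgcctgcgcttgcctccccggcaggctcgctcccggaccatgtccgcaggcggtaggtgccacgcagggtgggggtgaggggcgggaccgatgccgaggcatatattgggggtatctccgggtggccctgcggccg
Uhrf1: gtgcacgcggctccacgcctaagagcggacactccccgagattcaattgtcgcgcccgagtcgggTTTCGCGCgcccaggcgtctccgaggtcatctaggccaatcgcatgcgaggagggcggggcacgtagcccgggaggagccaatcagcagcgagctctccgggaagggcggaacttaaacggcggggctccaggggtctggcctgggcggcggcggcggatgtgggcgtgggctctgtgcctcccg

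The match began 219 bases before the start in Dnmt1 and 185 bases before it in Uhrf1. Dnmt1 had another match, TTTGGCGC, 33 bases after the same start, outside the stretch printed. Of all windows listed, 0.813% held a match, against 2 of the 16 windows of these genes. A match describes the letters of the window and is not a binding site.

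The libraries were kidney by their markers and were not alike in quality. Cdh16, the cadherin gene whose promoter drives the Cre, stood at 1120.55 and 905.84 TPM in kidneys labelled KspCre DKO, and at 900.27, 894.52 and 986.17 TPM in the controls. All 13 tubule markers examined were above 0 in each library. KspCre DKO replicate 2 had 14710 genes above 0, against 18488 to 20510 in the other libraries, and mitochondrial genes held 31.0% of its TPM, against 18.2% to 23.2%. The median log2 fold change of the 13963 tested genes was −0.14. Slc12a1, of the thick ascending limb, stood at 191.35 and 61.26 TPM in kidneys labelled KspCre DKO and at 393.99, 561.69 and 519.26 TPM in the controls. Aqp2, of the collecting duct, stood at 1413.81 and 1218.20 TPM in kidneys labelled KspCre DKO, against 346.53, 240.09 and 425.73 TPM in the controls. Neither passed limma (adjusted p = 0.141 for Slc12a1 and 0.0512 for Aqp2). Slc12a1 had the lowest and Aqp2 the highest log2 fold change of the 13 tubule markers. Of the 13, 8 were higher and 5 lower in mean log2 value in kidneys labelled KspCre DKO, with a median log2 fold change of 0.33. Ranges without overlap were found for 5 higher and 2 lower, and 0 passed limma. In bulk tissue, fewer cells of a type and less RNA per cell cannot be told apart.

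No difference between the groups passed the test for any of the 9 genes. Of the 7 that reached a mean of 1 TPM and were tested, 0 passed limma with Benjamini-Hochberg adjustment below 0.05, and 0 had an unadjusted p below 0.05. Of all tested genes 0.165% passed, 23 in number. Those higher in kidneys labelled KspCre DKO made up 0.1% of tested genes and those lower 0.0645%, and 10.3% had an unadjusted p below 0.05. The TPM ranges of the groups overlapped for all 9, whereas ranges without overlap were found for 26.1% of tested genes, 10.5% higher and 15.6% lower. Dnmt3l and Tet1 stayed below the mean of 1 TPM and were compared by exact permutation only. With 2 libraries against 3 there are 10 splits, so that test cannot give a p below 0.1.

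**Figure D1:**
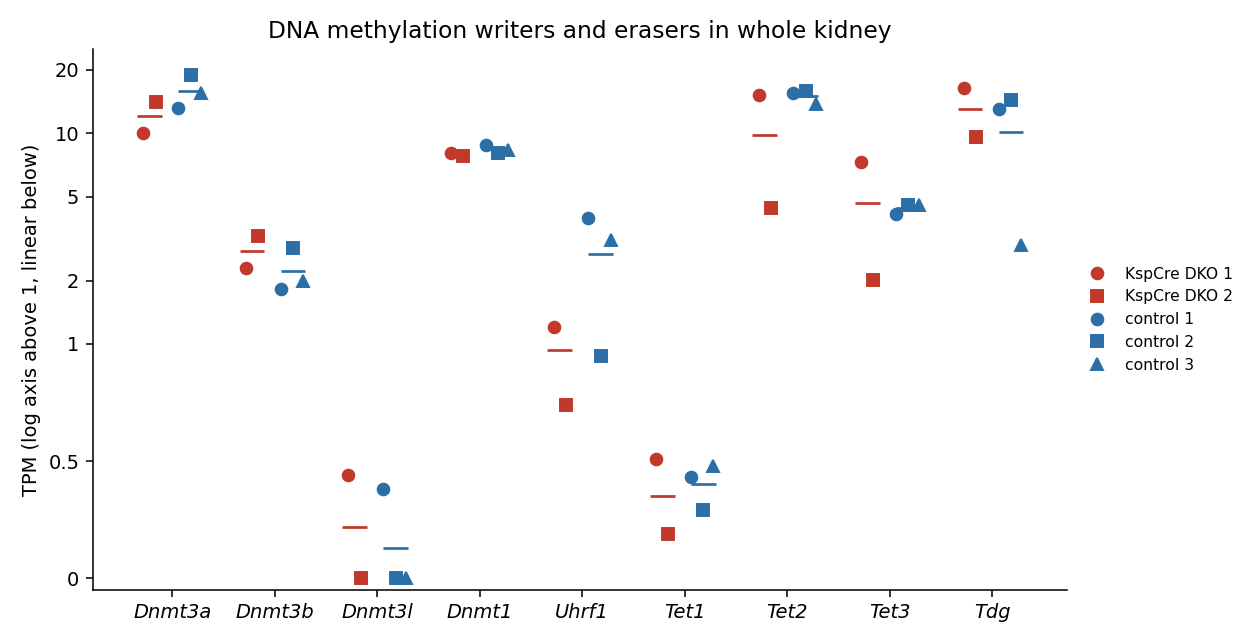
TPM of the 9 genes in each library, with KspCre DKO libraries in red and control libraries in blue and horizontal bars for group means, on an axis that is logarithmic above 1 TPM and linear below. The groups overlap for each gene, Dnmt1 stays between 7.84 and 8.78 TPM, and single libraries stand apart for Tet2, Tet3 and Tdg.

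The de novo enzymes include the targeted genes. Dnmt3a (ENSMUSG00000020661.15, chromosome 12, 3801559 to 3914443) is the main de novo methyltransferase gene of most postnatal tissues. It stood at 9.98 and 14.15 TPM in kidneys labelled KspCre DKO, against 13.20, 18.97 and 15.49 TPM in the controls. One library of the first group lay below all controls and the other lay among them. The group means were 12.1 ± 2.95 TPM (SD, n = 2) and 15.9 ± 2.91 TPM (SD, n = 3). The log2 fold change, taken on log2(TPM + 1) and therefore understated for low genes, was −0.37 ± 0.31 (SE; limma adjusted p = 0.709). Its 95% interval ran from −1.09 to 0.34.

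Dnmt3b (ENSMUSG00000027478.15, chromosome 2, 153649411 to 153687730), the de novo enzyme gene best known from embryos, stood lower in level than Dnmt3a in all 5 libraries. It had 2.29 and 3.25 TPM in kidneys labelled KspCre DKO, against 1.82, 2.86 and 1.98 TPM in the controls. The highest value was in a library labelled KspCre DKO and the lowest in a control. The log2 fold change was 0.23 ± 0.38 (SE; limma adjusted p = 0.866; 95% interval −0.64 to 1.10). Neither targeted gene was therefore lower in a way that checks the labels, and each direction given here rests on the labels. A TPM value covers the whole gene, and which exons are floxed is not stated in them.

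The ratio of the targeted genes separated the libraries by label more cleanly than either level, in a design too small for the test to pass. Dnmt3a TPM was 4.36 and 4.35 times Dnmt3b TPM in kidneys labelled KspCre DKO, against 7.25, 6.63 and 7.82 times in the controls. The groups did not overlap, and the ratio hardly varied within either. As a log2 ratio of TPM + 1 the means were 1.79 ± 0.07 (SD, n = 2) and 2.39 ± 0.07 (SD, n = 3), a difference of −0.60. The exact two-sided permutation p was 0.1, the smallest these libraries allow, and 0.3 after Benjamini-Hochberg adjustment over the 6 ratios computed, so the difference did not pass. With each other tested gene in place of Dnmt3b, 17.0% of Dnmt3a ratios were lower without overlap and 1.96% higher. With each other tested gene in place of Dnmt3a, 15.4% of Dnmt3b ratios were higher without overlap and 3.90% lower.

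Both genes were high in the same library of each group. KspCre DKO replicate 2 had more of both than KspCre DKO replicate 1, and control replicate 2 had more of both than the other controls. Set against Dnmt1 instead, neither gene separated the groups. Dnmt3a stood at 1.24 and 1.80 times Dnmt1 in kidneys labelled KspCre DKO and at 1.503, 2.36 and 1.86 times in the controls (exact permutation p = 0.4). Dnmt3b stood at 0.285 and 0.415 times Dnmt1 in kidneys labelled KspCre DKO and at 0.207, 0.356 and 0.237 times in the controls (exact permutation p = 0.4).

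Dnmt3l (ENSMUSG00000000730.13, chromosome 10, 78042287 to 78063622) was barely measured. It was listed at 0.44 and 0 TPM in kidneys labelled KspCre DKO, and at 0.38, 0 and 0 TPM in the controls. Dnmt3c, a rodent copy of Dnmt3b that acts in the male germ line, was listed at 0 in each library, as were Dnmt3a-ps1, Dnmt3l-ps1 and the antisense gene Dnmt3aos. The antisense gene Dnmt3bos stood at 0.53 and 0 TPM in kidneys labelled KspCre DKO and at 0.57, 1.19 and 0 TPM in the controls. Trdmt1, a relative once named Dnmt2 whose protein methylates transfer RNA, stood at 4 and 1.66 TPM in kidneys labelled KspCre DKO and at 2.34, 1.59 and 3.77 TPM in the controls. The strand setting of the counting is not given in the sources used here, so reads of Dnmt3b and Dnmt3bos cannot be told apart.

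**Figure D2:**
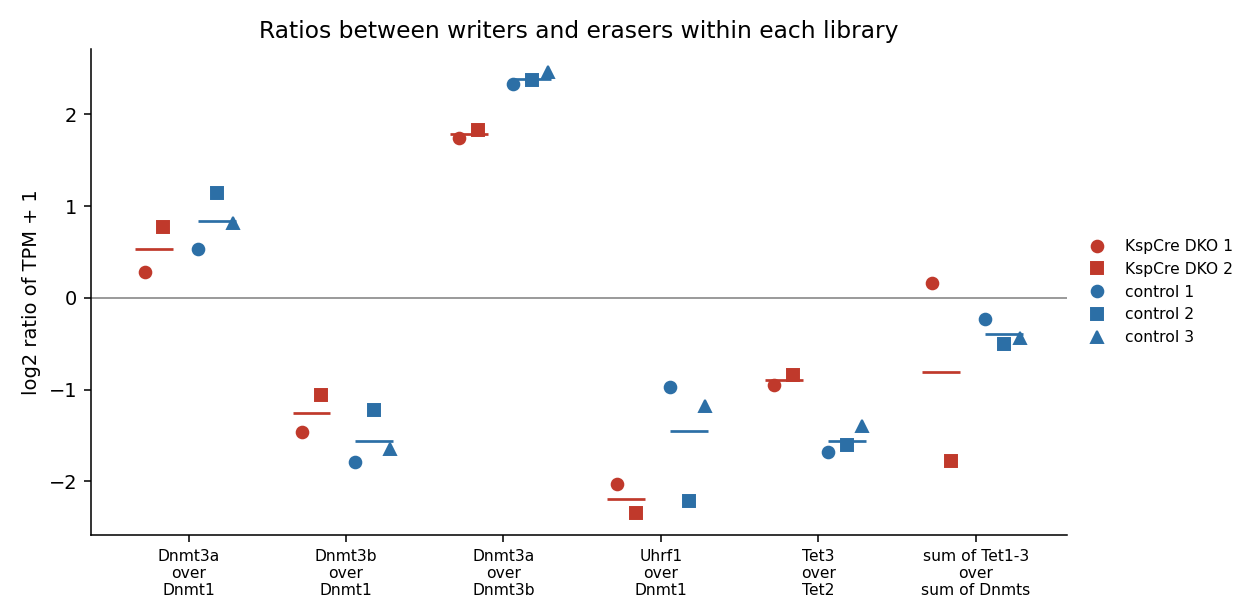
Log2 ratios of TPM + 1 between writers and erasers within each library, with KspCre DKO libraries in red, control libraries in blue and horizontal bars for group means. The Dnmt3a over Dnmt3b and the Tet3 over Tet2 ratios separate the groups, and the other 4 ratios overlap.

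The maintenance genes varied between libraries by unlike amounts. Dnmt1 (ENSMUSG00000004099.16, chromosome 9, 20907206 to 20959888) stood at 8.05 and 7.84 TPM in kidneys labelled KspCre DKO and at 8.78, 8.04 and 8.35 TPM in the controls. Its highest library exceeded its lowest by a factor of 1.12, and 0.115% of tested genes had so small a factor, a comparison chosen after its values were seen. The log2 fold change was −0.07 ± 0.29 (SE; limma adjusted p = 0.951), and with median-of-ratios scaling it was 0.03. Its 95% interval ran from −0.73 to 0.59.

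Uhrf1 (ENSMUSG00000001228.14, chromosome 17, 56303337 to 56323486), whose protein recognises half-methylated CG pairs, varied by a factor of 5.37 between libraries. It stood at 1.21 and 0.74 TPM in kidneys labelled KspCre DKO, against 3.97, 0.95 and 3.12 TPM in the controls. Control replicates 1 and 3 were high, and control replicate 2 lay among the libraries labelled KspCre DKO. The log2 fold change was −0.80 ± 0.50 (SE; limma adjusted p = 0.62; 95% interval −1.95 to 0.34). Over the 5 fits with a library left out, the log2 fold change ran from −1.21 to −0.53. The first was without control replicate 2, the low control (limma unadjusted p = 0.0412, adjusted p = 0.646). The second was without control replicate 1, the highest control (limma unadjusted p = 0.408, adjusted p = 0.897).

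Genes of dividing cells, chosen as a list because UHRF1 is made in S phase, had their highest medians in the same libraries. The median of the 21 tested markers, centred on the mean of the 5 libraries on the log2(TPM + 1) scale, was −0.07 and −0.37 in kidneys labelled KspCre DKO and 0.76, −0.32 and 0.55 in the controls. Uhrf1 on the same scale was −0.31 and −0.65 in kidneys labelled KspCre DKO and 0.86, −0.49 and 0.59 in the controls. Dnmt1 stayed between −0.06 and 0.09. Mki67, the proliferation antigen gene, stood at 1.65 and 2.2 TPM in kidneys labelled KspCre DKO and at 8.03, 1.32 and 4.61 TPM in the controls. Of the 21 markers 20 had a lower mean and 1 a higher mean in kidneys labelled KspCre DKO, 0 passed limma, and the median log2 fold change was −0.43, against −0.14 for all tested genes. Of all 13963 tested genes 8615 were lower and 5348 higher. Without control replicate 2 the median of the markers was −0.95, and without control replicate 1 it was −0.30.

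**Figure D3:**
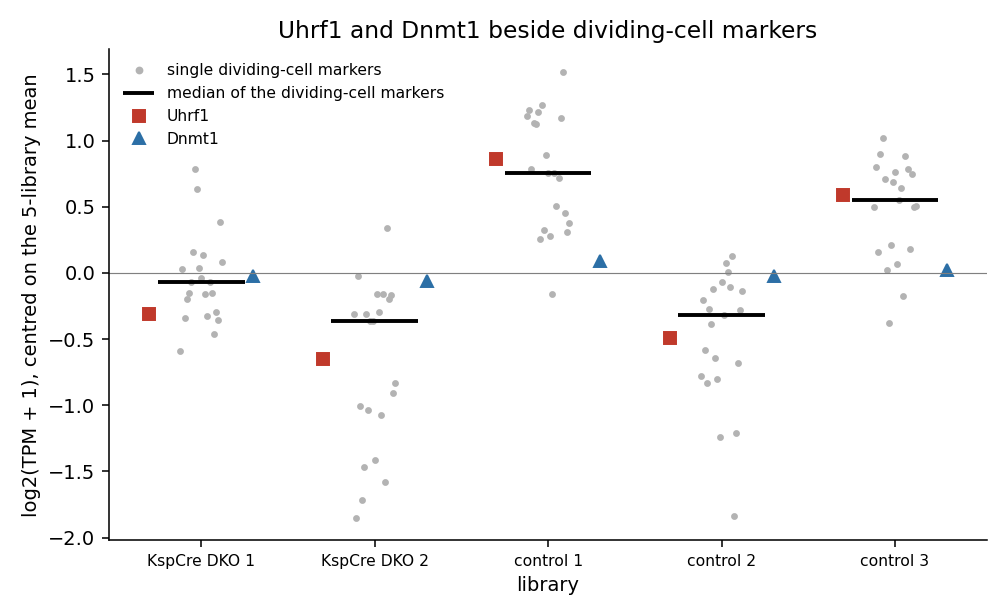
Log2(TPM + 1) of Uhrf1 (red squares), Dnmt1 (blue triangles) and 21 dividing-cell markers (grey points, black bar at the median) in each library, centred on the mean of the 5 libraries. Uhrf1 and the marker median lie above 0 in control replicates 1 and 3 and below 0 in the other 3 libraries, single markers scatter on both sides, and Dnmt1 stays between −0.06 and 0.09.

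Summed markers of other cell types varied between the same libraries. The summed TPM of 9 stromal markers was 101.76 and 141.88 in kidneys labelled KspCre DKO, against 306.07, 126.01 and 313.31 in the controls. The 7 podocyte markers summed to 242.46 and 247.16 TPM in kidneys labelled KspCre DKO and to 364.87, 138.45 and 429.27 TPM in the controls. The 9 leukocyte markers summed to 45.17 and 30.64 TPM in kidneys labelled KspCre DKO and to 102.25, 52.43 and 82.38 TPM in the controls. For endothelial cells the sums were 437.83 and 346.36 TPM in kidneys labelled KspCre DKO and 606.42, 316.07 and 524.60 TPM in the controls. Stromal and leukocyte lists included 3 members listed at 0 in a library: Lum, Cd79a and Cd3e were at 0 in KspCre DKO replicate 2. Red cell markers summed to 8521.79 and 9910.17 TPM in kidneys labelled KspCre DKO and to 8349.17, 996.57 and 3505.45 TPM in the controls. Lower mean log2 values in kidneys labelled KspCre DKO were found for 8 of 8 tested stromal, 6 of 6 leukocyte, 7 of 9 endothelial, 5 of 7 podocyte and 1 of 6 red cell markers. Among all 13963 tested genes 8615 were lower. In these lists 0 passed limma. Control replicate 2 was the lowest control in each of these sums, as in Uhrf1, and their part in the Uhrf1 values was not tested.

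Among the oxidases, Tet2 (ENSMUSG00000040943.12, chromosome 3, 133463677 to 133545136) had the highest level, near that of Dnmt3a. It stood at 15.12 and 4.43 TPM in kidneys labelled KspCre DKO, against 15.51, 15.87 and 13.72 TPM in the controls. KspCre DKO replicate 1 lay among the controls and replicate 2 far below them. The log2 fold change was −0.77 ± 0.45 (SE; limma adjusted p = 0.592; 95% interval −1.80 to 0.25). It rested on that library: leaving out KspCre DKO replicate 2 gave 0.01, and leaving out replicate 1 gave −1.56. The median of all tested genes was 0.13 without KspCre DKO replicate 2 and −0.39 without replicate 1. In each of these fits the lone KspCre DKO library is assumed to vary like the controls.

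Tet3 (ENSMUSG00000034832.15, chromosome 6, 83362373 to 83457208), the oxidase that acts on the paternal genome after fertilisation, split the same way. It stood at 7.31 and 2.02 TPM in kidneys labelled KspCre DKO, against 4.14, 4.56 and 4.59 TPM in the controls. The libraries labelled KspCre DKO lay on either side of 3 close controls, and the log2 fold change was −0.12 ± 0.46 (SE; limma adjusted p = 0.949). Leaving out KspCre DKO replicate 2 gave 0.61, and leaving out replicate 1 gave −0.85. Tet1 (ENSMUSG00000047146.17, chromosome 10, 62804570 to 62887469), the oxidase of pluripotent cells, stood at 0.51 and 0.19 TPM in kidneys labelled KspCre DKO, and at 0.43, 0.29 and 0.48 TPM in the controls (exact permutation p = 0.7).

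Tet2 and Tet3 were low in the same library, and their ratio varied little within each group. Tet3 TPM was 0.484 and 0.456 times Tet2 TPM in kidneys labelled KspCre DKO, against 0.267, 0.287 and 0.335 times in the controls. The groups did not overlap, and the log2 ratio of TPM + 1 differed by 0.66 (exact permutation p = 0.1, Benjamini-Hochberg adjusted p = 0.3). With each other tested gene in place of Tet2, 11.9% of Tet3 ratios were higher without overlap and 5.72% lower. With each other tested gene in place of Tet3, 35.3% of Tet2 ratios were lower without overlap and 1.67% higher.

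The gap between the libraries labelled KspCre DKO placed Dnmt3a and Dnmt3b toward one end and Tet2 and Tet3 toward the other. Dnmt3l and Tet1 stayed below the mean of 1 TPM and were not placed. On the log2(TPM + 1) scale KspCre DKO replicate 2 minus replicate 1 was −1.57 for Tet2 and −1.46 for Tet3, against a median of −0.54 over all tested genes. Of all tested genes 7.52% had a gap as low as that of Tet2 and 9.55% as low as that of Tet3. Dnmt3a and Dnmt3b lay at the other end, with gaps of 0.46 and 0.37, and 92.0% and 90.3% of tested genes had a gap at or below theirs. Dnmt1 had −0.03, Uhrf1 −0.35 and Tdg −0.72. KspCre DKO replicate 2 is the library with fewest genes above 0 and most mitochondrial RNA, and the part of that in these values was not tested. Among protein-coding genes split by genomic span, the median gap was −0.42 in the shortest of 4 equal groups, −0.56 and −0.57 in the middle groups and −0.57 in the longest, to which Tet1, Tet2, Tet3 and Dnmt3a belong.

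**Figure D4:**
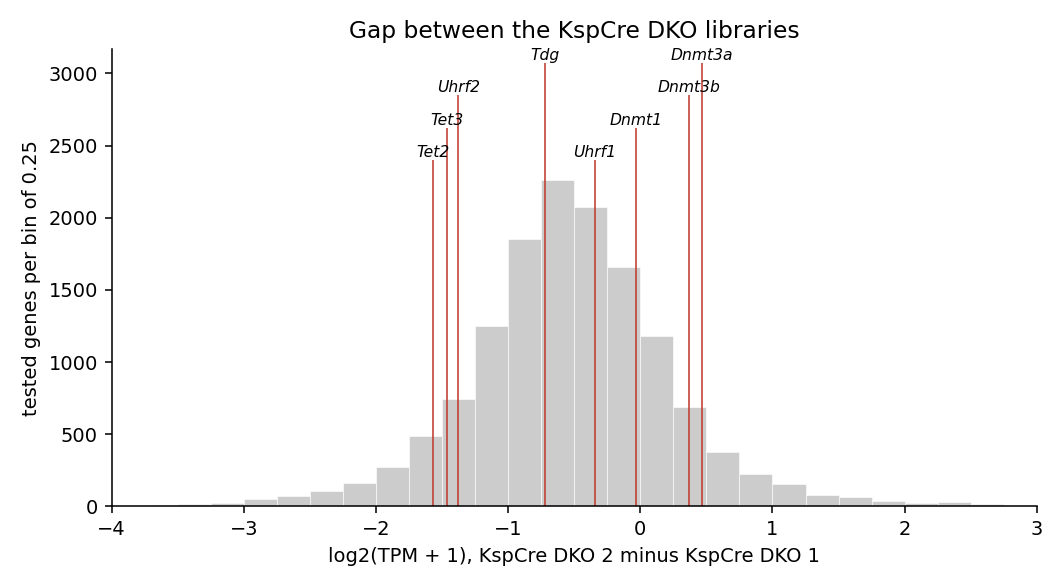
Number of tested genes by the difference in log2(TPM + 1) between KspCre DKO replicate 2 and replicate 1, with red lines at the tested writers and erasers and at Uhrf2. Tet2 and Tet3 lie on the low side at −1.57 and −1.46 and Dnmt3a and Dnmt3b on the high side at 0.46 and 0.37.

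Summed over each class, the oxidases reached 22.94 and 6.64 TPM in kidneys labelled KspCre DKO, against 20.08, 20.72 and 18.79 TPM in the controls. Dnmt1, Dnmt3a and Dnmt3b summed to 20.32 and 25.24 TPM in kidneys labelled KspCre DKO, against 23.80, 29.87 and 25.82 TPM in the controls. The ratio of these sums was 1.13 and 0.263 in kidneys labelled KspCre DKO, and 0.844, 0.694 and 0.728 in the controls (exact permutation p = 0.7). Oxidase transcripts were thus fewer than methyltransferase transcripts in 4 of 5 libraries, KspCre DKO replicate 1 being the exception.

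Tdg (ENSMUSG00000034674.18, chromosome 10, 82629814 to 82650799), the glycosylase that removes the oxidised bases, was set apart by a control. It stood at 16.44 and 9.59 TPM in kidneys labelled KspCre DKO, against 13.09, 14.43 and 2.95 TPM in the controls. Control replicate 3 lay 1.90 below the mean of the other controls on the log2(TPM + 1) scale, and 0.408% of tested genes had a gap as low. The log2 fold change was 0.52 ± 0.59 (SE; limma adjusted p = 0.791), and without control replicate 3 it was −0.12. Of the listed copies, Tdg-ps stood at 0.96 TPM and Gm9855 at 0.38 TPM in control replicate 3. Together with Tdg they summed to 16.76 and 9.59 TPM in kidneys labelled KspCre DKO and to 15.13, 16.05 and 4.29 TPM in the controls. For the sum the log2 fold change was 0.28 (exact permutation p = 0.8), a sum chosen after the values were seen. Control replicate 3 was lowest with the copies included too, and how reads were divided among copies was not examined.

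**Figure D5:**
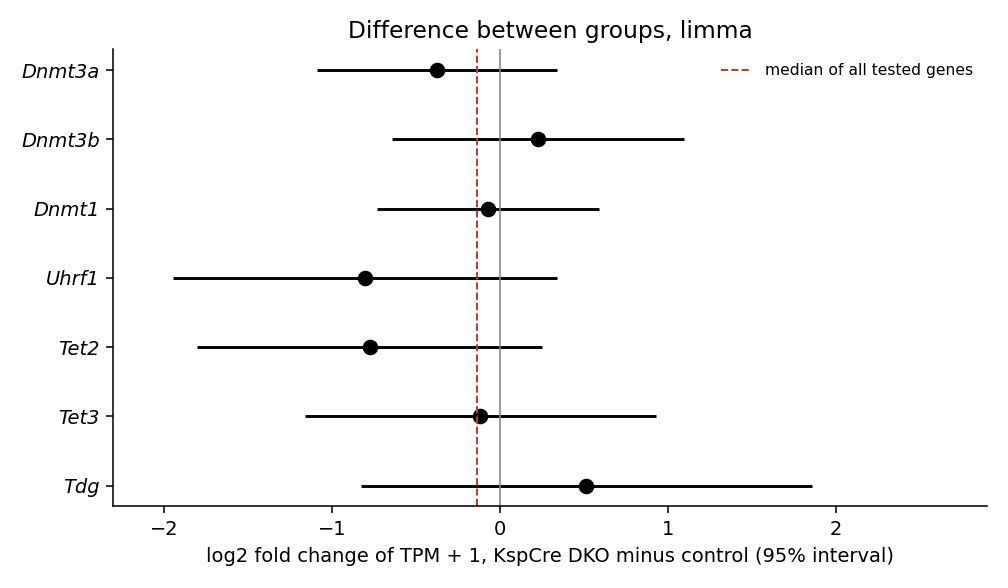
Log2 fold change of TPM + 1, KspCre DKO minus control, for the 7 tested genes, with 95% intervals from limma. Each interval spans 0 (grey line), and the dashed line marks the median of all tested genes at −0.14.

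Ordered by mean TPM, a scale that corrects for transcript length, the libraries labelled KspCre DKO had Tdg at 13.0, Dnmt3a at 12.1, Tet2 at 9.78, Dnmt1 at 7.95, Tet3 at 4.67, Dnmt3b at 2.77, Uhrf1 at 0.975, Tet1 at 0.35 and Dnmt3l at 0.22. The controls had Dnmt3a at 15.9, Tet2 at 15.0, Tdg at 10.2, Dnmt1 at 8.39, Tet3 at 4.43, Uhrf1 at 2.68, Dnmt3b at 2.22, Tet1 at 0.40 and Dnmt3l at 0.127. Dnmt3a, Tet2 and Tdg overlapped one another in both groups, and so did Tet1 and Dnmt3l. Dnmt1 overlapped Tet2 in kidneys labelled KspCre DKO and Tdg in the controls. Tet3 overlapped Tet2 and Dnmt3b in kidneys labelled KspCre DKO. In the controls Tdg also overlapped Tet3 and Uhrf1, and Uhrf1 overlapped Dnmt3b. Dnmt1 lay above Tet3 in each library. Among all genes with a mean above 0, Dnmt3a ranked at percentile 74.1, Dnmt1 at 64.8, Dnmt3b at 48.0 and Dnmt3l at 22.5.

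The genes whose pattern over the 5 libraries lay closest were sought among 8655 genes whose mean reached 5 TPM, leaving out predicted genes, Riken clones, pseudogenes, mitochondrial genes and genes without a symbol, by the root mean square distance of centred log2(TPM + 1). Nearest to Dnmt3a was Nol12, a nucleolar protein gene, at a distance of 0.05. It stood at 17.44 and 22.2 TPM in kidneys labelled KspCre DKO and at 21.02, 29.81 and 24.95 TPM in the controls, followed by Ppp1r12c and Ncl. Nearest to Dnmt3b was Trpv4, a cation channel gene, at a distance of 0.04. It stood at 43.35 and 60.28 TPM in kidneys labelled KspCre DKO and at 39.27, 54.22 and 40.49 TPM in the controls, followed by Taf1c and Ssbp3. Nearest to Uhrf1 were Loxl2, Rgs5 and Khdrbs3 at 0.12 to 0.14, a looser match. Loxl2, a matrix cross-linking enzyme gene, stood at 4.94 and 3.46 TPM in kidneys labelled KspCre DKO and at 10.91, 3.19 and 10.08 TPM in the controls. Nearest to Tet3 were Pde7a, R3hdm4 and Stx3, and Pde7a stood at 18.84 and 6.22 TPM in kidneys labelled KspCre DKO and at 10.71, 12.23 and 11.59 TPM in the controls. With only 5 libraries such likeness is a description of these libraries.

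The partners of maintenance showed no gene past the test. Of 10 tested, 2 had a higher and 8 a lower mean log2 value in kidneys labelled KspCre DKO, 0 passed limma, and the median log2 fold change was −0.25. The background for this list and those below is 5348 higher and 8615 lower of 13963 tested genes, with a median of −0.14. Uhrf2, the paralog of Uhrf1, stood at 21.65 and 7.71 TPM in kidneys labelled KspCre DKO, against 26.10, 23.10 and 28.72 TPM in the controls, without overlap (log2 fold change −0.94 ± 0.41 SE, limma adjusted p = 0.491). Zfp57, a zinc finger gene that protects imprinted methylation, stood at 5.44 and 5.43 TPM in kidneys labelled KspCre DKO, against 10.52, 8.13 and 9.42 TPM in the controls. Its groups did not overlap either (log2 fold change −0.68 ± 0.30 SE, limma adjusted p = 0.492). Pcna, the sliding clamp that DNMT1 binds at the fork, stood at 37.42 and 14.70 TPM in kidneys labelled KspCre DKO and at 35.49, 23.21 and 40.65 TPM in the controls. Across this list 2 of 10 had ranges without overlap, both lower, against 15.6% of all tested genes lower without overlap.

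Genes listed as readers of methylated DNA or as relatives of such readers were spread around 0. Of 9 tested, 5 were higher and 4 lower in mean, 0 passed limma, and the median log2 fold change was 0.02. Zbtb4, a zinc finger reader, stood at 12.19 and 8.90 TPM in kidneys labelled KspCre DKO, against 7.98, 6.54 and 6.93 TPM in the controls (limma adjusted p = 0.621). Mbd3, a subunit of the NuRD complex, stood at 70.16 and 59.03 TPM in kidneys labelled KspCre DKO, against 79.20, 68.38 and 92.21 TPM in the controls, and Mbd5 had a log2 fold change of −0.55. The ranges of Zbtb4 did not overlap, as for the 10.5% of all tested genes that were higher without overlap.

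Chromatin factors that guide the de novo enzymes had 2 of 11 tested members higher and 9 lower in mean, with 0 past limma and a median of −0.13. Of all 13963 tested genes 8615 were lower, with a median of −0.14. Ring1, a ligase subunit of Polycomb complex PRC1, stood at 15.08 and 8.01 TPM in kidneys labelled KspCre DKO, against 18.26, 16.52 and 25.68 TPM in the controls (log2 fold change −0.79 ± 0.36 SE, limma adjusted p = 0.503). Ehmt1, a methyltransferase for lysine 9 of histone H3, stood at 14.01 and 9.84 TPM in kidneys labelled KspCre DKO, against 17.91, 16.60 and 22.05 TPM in the controls (limma adjusted p = 0.528). Kdm2b, which binds unmethylated CG islands, stood at 5.35 and 4.91 TPM in kidneys labelled KspCre DKO, against 6.03, 6.33 and 6.27 TPM in the controls (limma adjusted p = 0.822). These 3 of 11 were the members whose groups did not overlap, all lower, against 15.6% of all tested genes lower without overlap. Nsd1, which places the histone mark that DNMT3A reads, overlapped at 20.07 and 9.14 TPM in kidneys labelled KspCre DKO and 14.86, 16.33 and 19.36 TPM in the controls, a gene added after its values were seen.

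Base excision repair and related genes, among them glycosylases other than TDG, had 4 of 15 members higher and 11 lower in mean. Of them 0 passed limma, and the median was −0.26. Of all 13963 tested genes 8615 were lower, with a median of −0.14. Ung, the uracil glycosylase gene, stood at 1.04 and 0.93 TPM in kidneys labelled KspCre DKO, against 2.23, 1.99 and 2.86 TPM in the controls (limma adjusted p = 0.556). Xrcc1, the scaffold of single-strand break repair, stood at 27.36 and 27.08 TPM in kidneys labelled KspCre DKO, against 34.75, 39.78 and 46.15 TPM in the controls (limma adjusted p = 0.544). Gadd45b, a stress gene linked to active demethylation, stood at 15.21 and 13.24 TPM in kidneys labelled KspCre DKO, against 9.11, 7.55 and 9.60 TPM in the controls (limma adjusted p = 0.503). Ranges without overlap were found for 7 of 15, of which 2 were higher and 5 lower, against 10.5% and 15.6% of all tested genes.

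Genes listed as linked to 2-oxoglutarate, a cofactor of TET enzymes, or as TET partners had 3 of 14 tested members higher and 11 lower in mean. Of them 0 passed limma, and the median was −0.27. Of all 13963 tested genes 8615 were lower, with a median of −0.14. Idh3a, a subunit of the mitochondrial isocitrate dehydrogenase that makes 2-oxoglutarate, stood at 60.84 and 47.70 TPM in kidneys labelled KspCre DKO, against 102.68, 98.86 and 132.15 TPM in the controls. Its log2 fold change was −1.02 ± 0.27 (SE; limma adjusted p = 0.245). Fh1, the fumarase gene, stood at 180.21 and 170.44 TPM in kidneys labelled KspCre DKO, against 259.16, 261.05 and 319.11 TPM in the controls (log2 fold change −0.66 ± 0.24 SE, limma adjusted p = 0.386). Idh2 stood at 362.87 and 197.75 TPM in kidneys labelled KspCre DKO, against 432.92, 409.58 and 400.39 TPM in the controls (limma adjusted p = 0.518). All 3 were lower without overlap, as 15.6% of all tested genes were, and none passed over all genes.

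The supply of the methyl donor S-adenosylmethionine had 5 of 18 tested members higher and 13 lower in mean, with 0 past limma and a median of −0.20. Of all 13963 tested genes 8615 were lower, with a median of −0.14. Shmt1, the cytosolic serine hydroxymethyltransferase that feeds one-carbon units into folate, stood at 32.31 and 9.54 TPM in kidneys labelled KspCre DKO, against 75.44, 97.56 and 56.10 TPM in the controls. Its log2 fold change was −2.01 ± 0.48 (SE; limma adjusted p = 0.193). Ahcy, which clears S-adenosylhomocysteine, an inhibitor of methyltransferases, stood at 40.10 and 16.66 TPM in kidneys labelled KspCre DKO, against 99.44, 54.45 and 43.10 TPM in the controls (limma adjusted p = 0.413). Pemt, a consumer of the donor, stood at 2.62 and 0 TPM in kidneys labelled KspCre DKO, against 2.49, 8.31 and 6.01 TPM in the controls (limma adjusted p = 0.405). The main enzyme gene for the donor in kidney, Mat2a, overlapped at 265.63 and 143.74 TPM in kidneys labelled KspCre DKO and 206.67, 176.69 and 178.97 TPM in the controls, a gene added after its values were seen.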

How the data were processed

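Poly(A) RNA of whole kidneys was made into Illumina TruSeq libraries, per the labels' protocols. Each of the 5 deposited RNA files lists TPM for every gene. Tools listed in the submitters' processing notes are STAR 2.2.1, RSEM 1.3.1, Trim Galore 0.5.0 and Bismark 0.19.1, with build mm10 and no roles. Neither the annotation release nor whether counting used strand is given in the sources used here. Depth cannot be had from TPM, so counting error has no interval here, and a listed 0 can be a failed estimate. The table of gene names paired 52480 of 54146 identifiers (96.9%). Positions and sequences are RefSeq's for GRCm38.p6.

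Groups were compared two-sided with limma 3.58.1 (R 4.3.3) and an intensity trend on log2(TPM + 1), over the 13963 genes whose mean reached 1 TPM, Benjamini-Hochberg adjusted and called below 0.05. Single values were compared by exact permutation of libraries. Other scalings, filters, pseudocounts and left-out libraries were tried. The genes and lists were chosen with earlier results of these data known. Epcam, Acta2, Cd74 and Csf1r were planned as cell markers but are absent from the marker lists used. Slc4a1 was counted both as a tubule marker and as a red cell marker. Named by rule were the 9 genes and their copies, the 3 genes of smallest p in each companion list other than the cell markers, the markers Cdh16, Mki67, Slc12a1 and Aqp2, and the 3 nearest patterns of Dnmt3a, Dnmt3b, Uhrf1 and Tet3. Nsd1, Mat2a, the markers at 0, Gm9855, the antisense genes and Dnmt3l-ps1 were added after values were seen, as were the E2F-type motif, the within-group gaps and the substitution of other genes in the ratios.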

Additional observations from a re-analysis of the deposited data

How the results depend on the processing

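The genes called over the whole table numbered 23 as reported, 14 with a pseudocount of 0.1, 39 with 5, 4 with no filter on low values, 42 with quantile normalization, 37 without mitochondrially encoded genes, 9 with no intensity trend and 5 with array weights. With single libraries left out the count ran from 6 without KspCre DKO replicate 2 to 560 without KspCre DKO replicate 1, and it was 59, 10 and 8 without control replicates 1, 2 and 3. Of the writers and erasers, 0 were called under each alternative except without KspCre DKO replicate 1, where 1 was called, Tet2, so the range over left-out libraries was 0 to 1.

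Values that changed sign were Dnmt1, at 0.0338 with median-of-ratios scaling and 0.0325 without mitochondrially encoded genes, and several with a library left out. Left-out ranges were −0.15 to 0.37 for Dnmt3l, −0.23 to 0.11 for Tet1, −1.56 to 0.0103 for Tet2, −0.85 to 0.61 for Tet3 and −0.12 to 0.88 for Tdg. The ratio of summed oxidases to methyltransferases ran from −1.39 to 0.56. Dnmt3a (−0.61 to −0.14), Dnmt3b (0.04 to 0.41) and Uhrf1 (−1.21 to −0.53) kept their sign with each library left out. The log2 ratio of Dnmt3a over Dnmt3b was −0.65 to −0.56 with a library left out, −0.71 with a pseudocount of 0.1 and −0.40 with 5. The ratio of Tet3 over Tet2 was 0.60 to 0.74 with a library left out.

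The list medians turned above 0 without KspCre DKO replicate 2 for maintenance partners (0.19), repair genes (0.04), de novo guidance (0.07), TET cofactors (0.05) and methyl donor supply (0.02). The median of all tested genes turned above 0 in that fit too, at 0.13. The turn above 0 is therefore not particular to the lists. Without KspCre DKO replicate 1 the median of all tested genes was −0.39. In that fit the median was −0.74 for maintenance partners, −0.64 for methyl donor supply and −0.63 for TET cofactors. It was −0.39 for repair genes, −0.34 for the readers and −0.29 for de novo guidance. Whether any list differs from all tested genes in these fits was not tested.

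With the replicate number as a block 75 genes and 0 writers or erasers were called, and Tdg was at −0.12. Same-numbered libraries deviated together by a correlation of 0.09 and 0.03 over genes, and the labels do not say that numbers pair them. The median of all tested genes was −0.04 with median-of-ratios scaling and −0.02 with quantile normalization, against −0.14. Tdg summed with its copies, an alternative chosen after seeing the data, was 0.28, against 0.52 for Tdg alone. Depth is unknown, so how far counting error limits the lowest genes, Dnmt3l, Tet1 and Uhrf1, cannot be given.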
